A study of Homo sapiens with 8 samples.

Results

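Genes of sterol and fatty acid synthesis were followed in a breast cancer cell line exposed to COH29. They were listed by symbol and comprise 18 enzymes of the cholesterol pathway, 7 regulators and related genes, and 9 enzymes of fatty acid synthesis. Of these 34 genes, 32 were measured by a probe set that the platform annotation pairs with exactly 1 gene, among 18417 such genes on the array. FDFT1 was not analysed here, and neither was HSD17B7, whose probe set is annotated also to its pseudogene HSD17B7P2.

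RNA came from 4 groups of 2 arrays each. HCC1937+BRCA1 cells, the line HCC1937 given exogenous wild-type BRCA1, were exposed to 10 µM COH29 for 24 h or left as controls. HCC1937 cells, which carry a truncated BRCA1 and are labelled BRCA1 deficient, were exposed in the same way or left as controls. COH29 inhibits ribonucleotide reductase, the enzyme that makes deoxynucleotides. The medium of all 4 groups was RPMI with 10% fetal bovine serum. The labels record neither a vehicle nor the hours of the controls, and an effect of either cannot be told apart from that of the drug. They also do not say how BRCA1 was delivered, whether HCC1937+BRCA1 is 1 clone, or whether replicate arrays stand for separate cultures. The p-values therefore measure only the spread between these arrays, which may be technical.

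Animal cells build cholesterol from acetyl-CoA through mevalonate, squalene and lanosterol, and build fatty acids from acetyl-CoA by way of malonyl-CoA. Transcription of both pathways is driven by the sterol regulatory element-binding proteins encoded by SREBF1 and SREBF2. These membrane proteins are held in the endoplasmic reticulum by INSIG proteins together with SCAP when sterols are plentiful, and move to the Golgi to be cut and released when sterols are scarce. SREBF2 products act mainly on sterol genes and SREBF1 products mainly on fatty acid genes.

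Values are log2 intensities, so that a change of 1 is a 2-fold change. Arrays of a group correlated with r of 0.996 to 0.997 across genes, and 8 of 8 arrays were closest to the other array of their group. BRCA1 itself read 10.25 and 10.07 in HCC1937+BRCA1 with COH29 against 10.50 and 10.43 in its controls, and 10.40 and 10.46 in HCC1937 with COH29 against 10.45 and 10.64 in its controls. It was not higher on the arrays labelled HCC1937+BRCA1, so its level does not check the labels, and the line names stand for those labels. BRCA1 was called lower with COH29 in HCC1937+BRCA1, with a change of -0.30 (limma adjusted p = 0.0441). Its change in HCC1937 was -0.12 (adjusted p = 0.444), and the difference of effects, -0.19, was not called (adjusted p = 0.649). The epithelial markers EPCAM, CDH1, KRT8 and KRT18 lay between 12.03 and 13.33 on every array. Of these, CDH1 rose with COH29 by 0.35 ± 0.08 in HCC1937+BRCA1 (adjusted p = 0.00891) and by 0.26 ± 0.08 in HCC1937 (adjusted p = 0.0468), and it was higher in HCC1937+BRCA1 with COH29 by 0.27 ± 0.08 (adjusted p = 0.0284). Of the markers of other cells, PTPRC lay at 3.73 to 4.31, CD3E at 4.78 to 5.64 and COL1A1 at 7.78 to 8.16, while the basal marker KRT17 was not analysed here. PECAM1 was the only one of the 4 measured markers of other cells that was called with COH29, and it fell in both lines. PECAM1, an adhesion molecule of endothelium and blood cells, read 6.51 and 6.75 in HCC1937+BRCA1 with COH29 against 8.08 and 8.14 in its controls, and 7.30 and 7.40 in HCC1937 with COH29 against 9.23 and 9.37 in its controls. KRT5, a basal keratin, lay at 9.10 to 9.34 on the HCC1937+BRCA1 arrays and at 10.65 to 11.04 on the HCC1937 arrays. KRT14, the other basal keratin measured, did not follow it, with line differences of -0.06 ± 0.10 with COH29 and -0.15 ± 0.10 without that were not called. It rose with COH29 by 0.35 ± 0.10 in HCC1937+BRCA1 (adjusted p = 0.0248) and changed by 0.26 ± 0.10 in HCC1937 (adjusted p = 0.0973). The CDH1 calls ended without HCC1937+BRCA1 control replicate 2 in HCC1937+BRCA1 (adjusted p = 0.0549), without any 1 of the 8 arrays in HCC1937 (0.0617 to 0.205), and without any 1 of the 4 COH29 arrays between the lines (0.0744 to 0.107). The KRT14 call ended without HCC1937+BRCA1 COH29 replicate 1 and without HCC1937+BRCA1 control replicate 2 (adjusted p = 0.122 to 0.126). The part of these marker changes in the results below was not tested. In these bulk RNA samples, a change in the share of cells of a kind and a change in RNA per cell cannot be told apart.

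The start regions of these genes were read from RefSeq (build GRCh38.p14), where 30 of the 34 genes had an entry. HSD17B7 is among them although its level was not analysed, and ACAT2, FDFT1, SQLE and FASN had no entry. The 250 bases before each start were searched on both strands for 4 motifs. CCAAT, the letters bound by NF-Y, a factor that acts beside the sterol regulatory proteins, was present in 18 of 30 promoters (60.0%), against 33.0% of 27305 promoters in the table. It was present in 12 of 15 promoters of sterol enzymes (80.0%), in 3 of 7 of the regulators and related genes (42.9%), and in 3 of 8 of fatty acid enzymes (37.5%), which were those of ACLY, SCD and ACSS2. GGGCGG, the Sp1 letters, was present in 28 of 30 (93.3%), against 42.3% of all promoters. TCACNCCAC, a form of the sterol response element, was present in 1 of 30 windows, that of SREBF2 (3.33%), against 0.875% of all promoters. TGATGNAAT, a CHOP and ATF4 element, was present in 0 of 30, against 0.916% of all promoters. These are matches of letters and do not show binding. Other forms of the sterol response element and bases outside the windows were not searched, so a missing match does not show that a site is missing.

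Promoters are shown for the genes on which the results below turn and for SREBF2, which holds the sterol response element form. Capitals mark TCACNCCAC and CCAAT, and CCAAT also where it reads ATTGG on the printed strand. Each runs 5′ to 3′ along the gene and ends at the base before the start used in the promoter table. Of the 30 starts, 22 are at the edge of the annotated locus and 8 lie inside it. Among these, that of LPIN1 lies 69088 bases inside, that of ACLY 11523 and that of PMVK 5939. The start of ELOVL6 lies 587 bases inside, so its printed window lies within the locus.
SREBF2, chr22:41832855-41833104, plus strand: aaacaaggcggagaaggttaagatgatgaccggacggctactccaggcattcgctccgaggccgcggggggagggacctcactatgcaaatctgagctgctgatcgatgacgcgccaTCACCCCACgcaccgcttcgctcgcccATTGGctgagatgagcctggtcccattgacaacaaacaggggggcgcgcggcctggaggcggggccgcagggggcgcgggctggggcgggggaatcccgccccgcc
INSIG1, chr7:155297628-155297877, plus strand: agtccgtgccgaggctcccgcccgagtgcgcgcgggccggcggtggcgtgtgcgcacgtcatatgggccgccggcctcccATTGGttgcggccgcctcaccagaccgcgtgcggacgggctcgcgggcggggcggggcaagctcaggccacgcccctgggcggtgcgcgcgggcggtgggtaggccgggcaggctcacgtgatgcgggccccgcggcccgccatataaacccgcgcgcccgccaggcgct
HMGCS1, chr5:43313413-43313662, minus strand: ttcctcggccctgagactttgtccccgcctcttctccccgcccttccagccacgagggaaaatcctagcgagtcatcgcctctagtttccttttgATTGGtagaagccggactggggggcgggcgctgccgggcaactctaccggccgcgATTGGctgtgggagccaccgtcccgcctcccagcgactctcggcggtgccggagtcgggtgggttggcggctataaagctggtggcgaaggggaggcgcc
TM7SF2, chr11:65111622-65111871, plus strand: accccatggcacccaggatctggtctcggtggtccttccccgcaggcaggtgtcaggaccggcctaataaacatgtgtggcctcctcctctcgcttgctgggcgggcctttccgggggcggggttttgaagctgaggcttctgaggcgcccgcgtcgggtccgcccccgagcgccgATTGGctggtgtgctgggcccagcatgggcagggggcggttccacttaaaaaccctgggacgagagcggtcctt
SC5D, chr11:121292521-121292770, plus strand: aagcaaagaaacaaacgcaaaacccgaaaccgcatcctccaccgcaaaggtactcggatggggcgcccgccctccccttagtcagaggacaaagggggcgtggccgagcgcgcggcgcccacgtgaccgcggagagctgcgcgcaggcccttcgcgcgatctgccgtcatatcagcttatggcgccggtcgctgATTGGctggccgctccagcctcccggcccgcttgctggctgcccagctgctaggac
ELOVL6, chr4:110198616-110198865, minus strand: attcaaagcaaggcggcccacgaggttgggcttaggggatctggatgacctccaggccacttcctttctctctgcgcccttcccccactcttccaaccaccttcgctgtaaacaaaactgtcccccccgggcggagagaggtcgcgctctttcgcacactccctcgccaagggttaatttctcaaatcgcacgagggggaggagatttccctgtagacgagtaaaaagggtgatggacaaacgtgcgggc
The CCAAT letters lay 155 to 151 and 100 to 96 bases before the start of HMGCS1, 74 to 70 before that of TM7SF2, 56 to 52 before that of SC5D and 170 to 166 before that of INSIG1. In SREBF2 the sterol response element form lay 133 to 125 bases and CCAAT 106 to 102 bases before the start. The printed ELOVL6 window holds neither, and the bases before the edge of its locus were not searched.

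The first comparison asks what COH29 did to the sterol enzymes. With COH29, 7 of 16 sterol enzymes rose in HCC1937+BRCA1 and 0 fell (limma adjusted p under 0.05; 8 higher and 2 lower at an unadjusted p under 0.05). In HCC1937, 8 rose and 1 fell. Over all 32 genes, 15 rose and 3 fell in HCC1937+BRCA1, and 15 rose and 3 fell in HCC1937. Among all genes, 13.6% rose and 20.1% fell in HCC1937+BRCA1 (33.6% in either direction), and 10.2% rose and 12.5% fell in HCC1937 (22.7% in either direction). Both COH29 arrays lay above both controls for 19 of the 32 genes in HCC1937+BRCA1, against 35.4% of all genes, and for 20 in HCC1937, against 33.8%. Both lay below both controls for 9 genes in each line, against 33.0% of all genes in HCC1937+BRCA1 and 28.6% in HCC1937. The 18 calls in HCC1937 became 11 without either HCC1937 control, the 3 falls there became 0 without HCC1937 COH29 replicate 1 or without either HCC1937 control, and the 0 sterol falls in HCC1937+BRCA1 became 1 without HCC1937+BRCA1 COH29 replicate 2. With the arrays shifted to a common median, 54.4% of the called genes were higher in HCC1937+BRCA1, against 40.3% as deposited, and 17 of the 32 genes were higher and 2 lower. The rises of sterol enzymes included HMGCS1, IDI1, SQLE, LSS, TM7SF2, MSMO1 and SC5D in both lines. TM7SF2 and IDI1 changed most among the sterol enzymes in HCC1937+BRCA1, and SC5D and TM7SF2 in HCC1937. The median change of the sterol enzymes was 0.23 in HCC1937+BRCA1 and 0.26 in HCC1937, against 0.04 for all genes in each line.

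**Figure D1:**
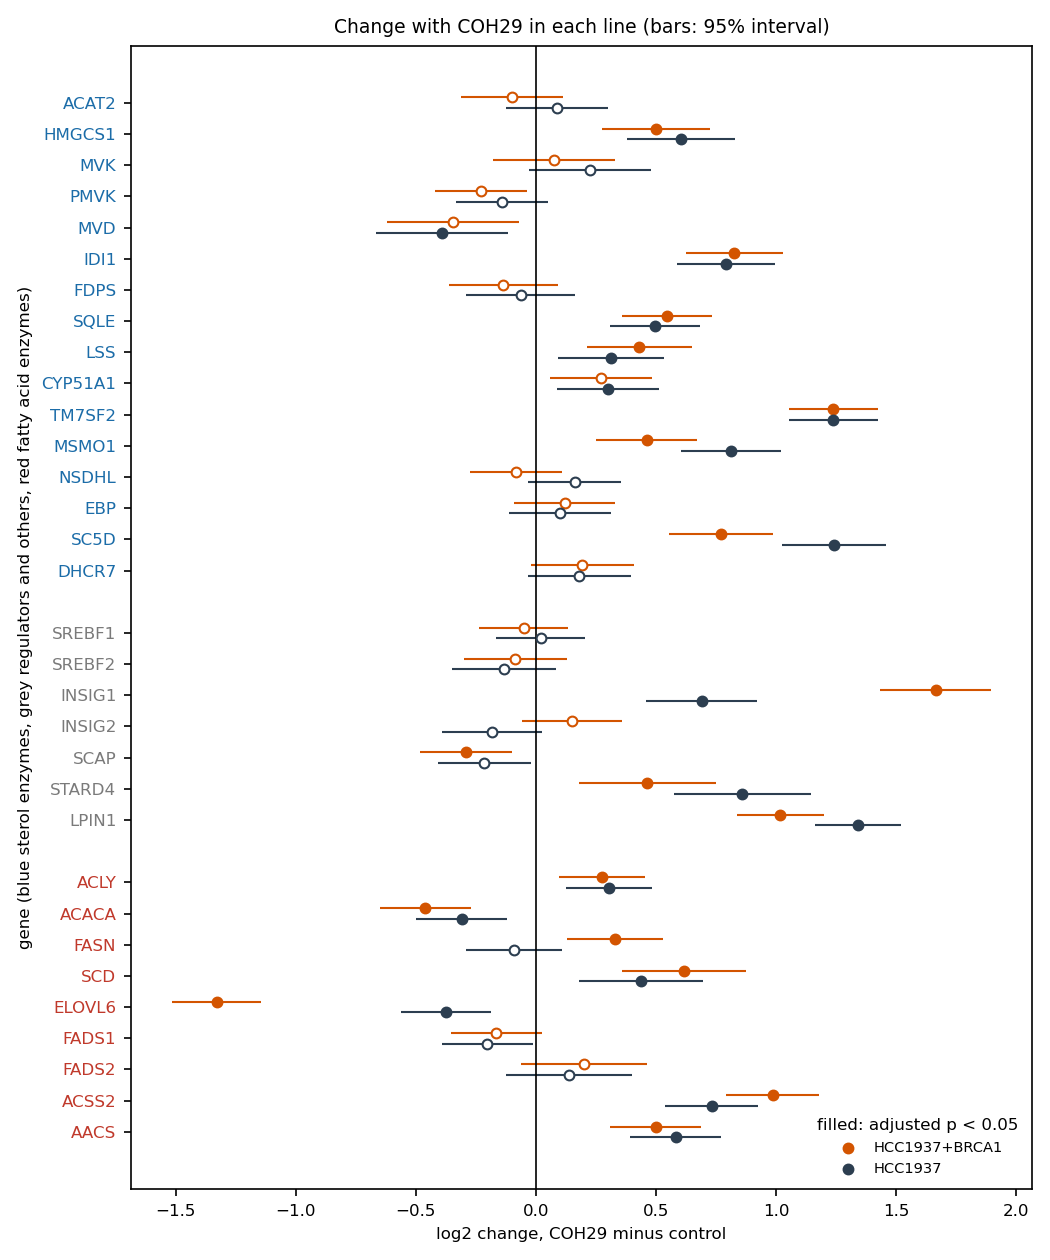
Log2 change with COH29 (horizontal axis, COH29 minus control) of the 32 genes (rows), with HCC1937+BRCA1 in orange above HCC1937 in dark blue. Points are limma estimates from 2 arrays per group, bars their 95% intervals, and filled points have an adjusted p under 0.05; INSIG1 in HCC1937+BRCA1 lies highest at 1.66 and ELOVL6 in HCC1937+BRCA1 lowest at -1.33.

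The enzymes that make and activate mevalonate moved unevenly. ACAT2, the cytosolic thiolase that joins acetyl-CoA units, read 9.68 and 9.73 in HCC1937+BRCA1 with COH29 against 9.88 and 9.74 in its controls, and 9.13 and 9.27 in HCC1937 with COH29 against 9.16 and 9.06 in its controls. Its changes of -0.10 ± 0.09 (SE) and 0.09 ± 0.09 did not pass the test (adjusted p = 0.439 and 0.543). HMGCS1, the cytosolic HMG-CoA synthase, read 9.86 and 9.93 in HCC1937+BRCA1 with COH29 against 9.47 and 9.32 in its controls. In HCC1937 it read 10.90 and 10.88 with COH29 against 10.17 and 10.39 in controls. The exposed arrays lay above the controls in each line, and HMGCS1 rose by 0.50 ± 0.10 (adjusted p = 0.00443) and 0.61 ± 0.10 (adjusted p = 0.00257). MVK, mevalonate kinase, ranged between 7.84 and 8.27 over the 8 arrays, with changes of 0.08 ± 0.11 in HCC1937+BRCA1 and 0.23 ± 0.11 in HCC1937 (adjusted p = 0.624 and 0.189). PMVK, which adds the second phosphate, read 8.54 and 8.52 in HCC1937+BRCA1 with COH29 against 8.80 and 8.71 in its controls, and 7.86 and 7.77 in HCC1937 with COH29 against 7.91 and 8.0 in its controls. The exposed arrays lay below the controls in both lines, but the changes of -0.23 ± 0.08 and -0.14 ± 0.08 did not pass the test (adjusted p = 0.0669 and 0.277).

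MVD, the decarboxylase that makes isopentenyl diphosphate, read 9.15 and 9.49 in HCC1937+BRCA1 with COH29 against 9.65 and 9.68 in its controls, and 8.82 and 9.02 in HCC1937 with COH29 against 9.35 and 9.28 in its controls. It fell by 0.39 in HCC1937 (SE 0.12, adjusted p = 0.0466), the only fall among the sterol enzymes in that line, and its change of -0.35 ± 0.12 in HCC1937+BRCA1 missed the threshold (adjusted p = 0.0554). The MVD call in HCC1937 ended without HCC1937 COH29 replicate 1, without either HCC1937 control and without either HCC1937+BRCA1 control (adjusted p = 0.063 to 0.235). IDI1, the isomerase that balances the C5 units, gave a clearer picture. It read 10.88 and 10.97 in HCC1937+BRCA1 with COH29 against 10.12 and 10.08 in its controls, and 11.04 and 10.86 in HCC1937 with COH29 against 10.17 and 10.15 in its controls. IDI1 rose by 0.83 ± 0.09 (adjusted p = 0.000167) and by 0.79 ± 0.09 (adjusted p = 0.00041). FDPS, which joins these units to farnesyl diphosphate, read 9.62 and 9.56 in HCC1937+BRCA1 with COH29 against 9.83 and 9.63 in its controls, and 8.80 and 8.99 in HCC1937 with COH29 against 8.94 and 8.97 in its controls. Its changes were -0.14 ± 0.10 and -0.06 ± 0.10 (adjusted p = 0.322 and 0.692), so the neighbouring steps IDI1 and FDPS did not move alike. IDI1 and FDPS have named pseudogenes, and signal from these was not tested.

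SQLE and LSS, which lead squalene to lanosterol, rose with COH29. SQLE, the squalene epoxidase, read 11.54 and 11.47 in HCC1937+BRCA1 with COH29 against 11.02 and 10.91 in its controls, and 11.53 and 11.52 in HCC1937 with COH29 against 11.02 and 11.04 in its controls. SQLE rose by 0.54 ± 0.08 (adjusted p = 0.00103) and 0.50 ± 0.08 (adjusted p = 0.00282), and its levels in the lines nearly coincided. LSS, lanosterol synthase, read 9.47 and 9.54 in HCC1937+BRCA1 with COH29 against 9.09 and 9.06 in its controls, and 8.86 and 9.09 in HCC1937 with COH29 against 8.69 and 8.63 in its controls. It rose by 0.43 ± 0.10 in HCC1937+BRCA1 (adjusted p = 0.00815) and by 0.31 ± 0.10 in HCC1937 (adjusted p = 0.0467). Without HCC1937+BRCA1 COH29 replicate 2 the LSS call in HCC1937+BRCA1 ended (adjusted p = 0.0507). In HCC1937 the LSS call ended without any 1 of 7 arrays, all but HCC1937 COH29 replicate 1 (adjusted p = 0.0616 to 0.207), and without HCC1937 COH29 replicate 2 the change was 0.20. The replicate number as a block also ended it (adjusted p = 0.0639 to 0.103 over this, no moderation and a fit of the 4 arrays compared).

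CYP51A1, the lanosterol demethylase, read 10.70 and 10.69 in HCC1937+BRCA1 with COH29 against 10.50 and 10.34 in its controls, and 9.72 and 9.87 in HCC1937 with COH29 against 9.55 and 9.45 in its controls. Its change of 0.30 ± 0.09 in HCC1937 passed the threshold (adjusted p = 0.0496) and that of 0.27 ± 0.09 in HCC1937+BRCA1 did not (adjusted p = 0.0527). Leaving out any 1 of the 8 arrays ended the CYP51A1 call (adjusted p = 0.0542 to 0.245), and its other probe set moved by 0.19 and 0.25. TM7SF2, the sterol reductase that acts next, read 9.94 and 10.01 in HCC1937+BRCA1 with COH29 against 8.74 and 8.73 in its controls, and 9.89 and 10.01 in HCC1937 with COH29 against 8.72 and 8.70 in its controls. The 4 exposed arrays lay more than 1 above the 4 controls, with hardly any difference between the lines. TM7SF2 rose by 1.24 ± 0.08 in both lines, a 2.36-fold change (adjusted p = 1.42e-05 and 3.81e-05). The difference of its effects was 0.00, with a 95% interval of -0.26 to 0.26.

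MSMO1, the methylsterol oxidase, read 11.66 and 11.67 in HCC1937+BRCA1 with COH29 against 11.29 and 11.12 in its controls, and 11.18 and 11.21 in HCC1937 with COH29 against 10.44 and 10.32 in its controls. It rose by 0.46 ± 0.09 (adjusted p = 0.00456) and 0.81 ± 0.09 (adjusted p = 0.000417), and the difference of -0.35 ± 0.13 did not pass its own test (adjusted p = 0.298). NSDHL, which works on the same methyl groups, read 10.18 and 10.22 in HCC1937+BRCA1 with COH29 against 10.25 and 10.32 in its controls, and 9.65 and 9.78 in HCC1937 with COH29 against 9.56 and 9.55 in its controls. Its changes of -0.08 ± 0.09 and 0.16 ± 0.09 did not pass the test (adjusted p = 0.471 and 0.215). EBP, a sterol isomerase, ranged between 10.20 and 10.73 over the 8 arrays and changed by 0.12 ± 0.09 and 0.10 ± 0.09 (adjusted p = 0.348 and 0.483). SC5D, the sterol desaturase of the next step, read 11.71 and 11.68 in HCC1937+BRCA1 with COH29 against 11.02 and 10.83 in its controls, and 11.52 and 11.51 in HCC1937 with COH29 against 10.35 and 10.20 in its controls. SC5D rose by 0.77 ± 0.10 in HCC1937+BRCA1 (adjusted p = 0.000342) and by 1.24 ± 0.10 in HCC1937, or 2.37-fold (adjusted p = 7.22e-05). Exposed arrays of the lines lay closer together than their controls, although the difference of effects, -0.47 ± 0.14, did not pass the test (adjusted p = 0.171). DHCR7, the reductase that completes cholesterol in this branch, ranged between 10.88 and 11.40, with exposed arrays above controls in each line, and its changes of 0.19 ± 0.09 and 0.18 ± 0.09 did not pass the test (adjusted p = 0.148 and 0.211).

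**Figure D2:**
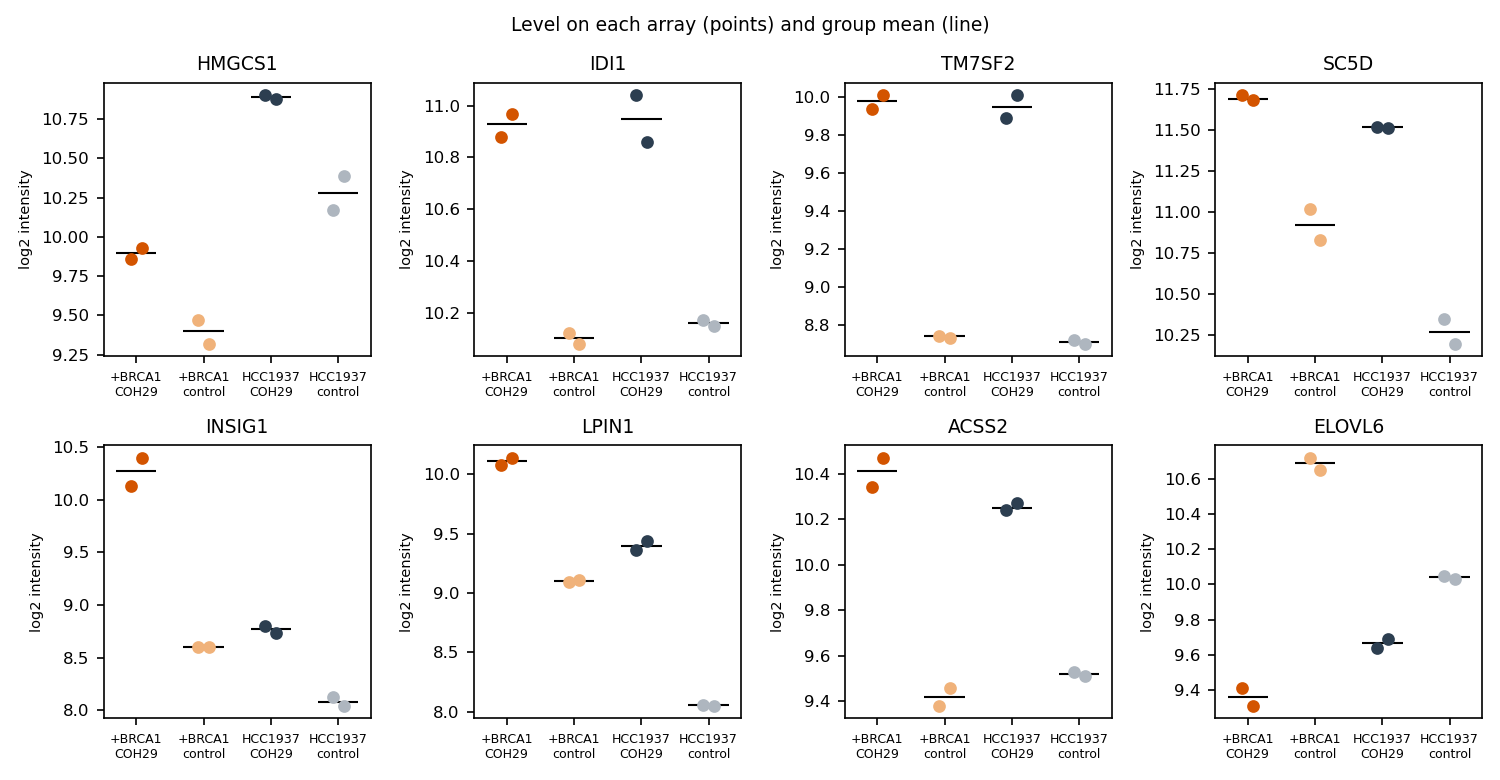
Log2 intensity (vertical axis, a separate scale for each gene) of 8 genes on each of the 8 arrays, by group along the horizontal axis, with HCC1937+BRCA1 written as +BRCA1. Points are arrays and lines are group means of 2 arrays; TM7SF2 stood at about the same level in both lines, while INSIG1 parted between the lines with COH29, at 10.13 and 10.40 in HCC1937+BRCA1 against 8.80 and 8.73 in HCC1937.

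Of the 7 regulators and related genes, 3 rose and 1 fell in HCC1937+BRCA1, and 3 rose and 0 fell in HCC1937. Of all genes, 13.6% rose and 20.1% fell in HCC1937+BRCA1, and 10.2% rose and 12.5% fell in HCC1937. The share that fell, 14.3% in HCC1937+BRCA1, is not above that of all genes. At an unadjusted p under 0.05 (limma), 3 were higher and 1 lower in each line. INSIG1, STARD4 and LPIN1 rose in both lines, SCAP fell in HCC1937+BRCA1, and the SREBF genes did not pass the test. SREBF2 read 9.10 and 9.20 in HCC1937+BRCA1 with COH29 against 9.33 and 9.15 in its controls, and 9.12 and 9.18 in HCC1937 with COH29 against 9.22 and 9.34 in its controls. Its changes were -0.09 (95% interval -0.30 to 0.13) and -0.13 (-0.35 to 0.08). SREBF1 read 8.92 and 9.04 in HCC1937+BRCA1 with COH29 against 9.02 and 9.04 in its controls, and 9.15 and 9.17 in HCC1937 with COH29 against 9.14 and 9.14 in its controls. Its changes were -0.05 (-0.24 to 0.13) and 0.02 (-0.16 to 0.21), so changes of the size seen for INSIG1 lie outside these intervals. RNA levels say nothing of how much of the proteins was cut and released. SCAP, which escorts the SREBF products to the Golgi, read 9.38 and 9.37 in HCC1937+BRCA1 with COH29 against 9.74 and 9.59 in its controls, and 9.59 and 9.60 in HCC1937 with COH29 against 9.79 and 9.83 in its controls. SCAP fell by 0.29 in HCC1937+BRCA1 (SE 0.08, adjusted p = 0.0274), and its change in HCC1937 was -0.21 ± 0.08 (adjusted p = 0.106). The SCAP call ended without either HCC1937+BRCA1 COH29 array and without HCC1937+BRCA1 control replicate 1 (adjusted p = 0.0812 to 0.18), and under cyclic loess the change was -0.18 (adjusted p = 0.128).

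INSIG1, which retains SCAP in the endoplasmic reticulum and is itself a target of the SREBF products, read 10.13 and 10.40 in HCC1937+BRCA1 with COH29 against 8.60 and 8.60 in its controls. In HCC1937 it read 8.80 and 8.73 with COH29 against 8.12 and 8.04 in controls. Exposed arrays lay above controls in each line, by much more in HCC1937+BRCA1. INSIG1 rose by 1.66 ± 0.10 in HCC1937+BRCA1, or 3.17-fold (adjusted p = 1.04e-05), and by 0.69 ± 0.10 in HCC1937, or 1.61-fold (adjusted p = 0.00151). INSIG2, its relative, read 8.82 and 8.77 in HCC1937+BRCA1 with COH29 against 8.60 and 8.69 in its controls, and 8.26 and 8.44 in HCC1937 with COH29 against 8.51 and 8.56 in its controls. INSIG2 changed by 0.15 ± 0.09 and -0.18 ± 0.09, and neither change nor their difference of 0.33 ± 0.13 passed the test (adjusted p = 0.236, 0.192 and 0.321).

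STARD4, a carrier of cholesterol through the cytosol, read 6.97 and 7.24 in HCC1937+BRCA1 with COH29 against 6.65 and 6.62 in its controls, and 7.43 and 7.76 in HCC1937 with COH29 against 6.75 and 6.71 in its controls. STARD4 rose by 0.46 ± 0.13 (adjusted p = 0.0202) and 0.86 ± 0.13 (adjusted p = 0.00143), with a difference of -0.40 ± 0.18 that did not pass the test (adjusted p = 0.392). The STARD4 call in HCC1937+BRCA1 ended without HCC1937+BRCA1 COH29 replicate 2 and without either HCC1937+BRCA1 control (adjusted p = 0.0701 to 0.134). LPIN1, a phosphatidate phosphatase of glycerolipid synthesis, read 10.08 and 10.14 in HCC1937+BRCA1 with COH29 against 9.09 and 9.11 in its controls, and 9.36 and 9.44 in HCC1937 with COH29 against 8.06 and 8.05 in its controls. LPIN1 rose by 1.02 ± 0.08 (adjusted p = 2.95e-05) and 1.34 ± 0.08 (adjusted p = 2.54e-05). Exposed and control arrays did not overlap in either line, and the difference of effects, -0.32 ± 0.11, did not pass the test (adjusted p = 0.26).

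Fatty acid enzymes changed in both directions. With COH29, 5 of 9 fatty acid enzymes rose and 2 fell in HCC1937+BRCA1 (against 13.6% and 20.1% of all genes), and 4 rose and 2 fell in HCC1937 (against 10.2% and 12.5%). The share that fell in HCC1937+BRCA1 is near that of all genes. The rises in both lines were those of ACLY, SCD, ACSS2 and AACS, and the falls in both lines those of ACACA and ELOVL6. The 5 rises in HCC1937+BRCA1 became 3 without COH29 replicate 2 or without control replicate 2 of that line. In HCC1937 the 4 rises became 2 without any 1 of its 4 arrays (COH29 and control replicates 1 and 2), and the 2 falls became 1 without COH29 replicate 2 and 0 without any 1 of the other arrays of that line. The enzymes that supply activated acetyl and acetoacetyl units came out higher. ACLY and ACSS2 make acetyl-CoA, from which both pathways start, so their rises are not particular to fatty acid synthesis. Apart from ACLY, ACSS2 and AACS, only SCD of this list was called higher in both lines. ACSS2, which makes acetyl-CoA from acetate, read 10.34 and 10.47 in HCC1937+BRCA1 with COH29 against 9.38 and 9.46 in its controls, and 10.24 and 10.27 in HCC1937 with COH29 against 9.53 and 9.51 in its controls. It rose by 0.99 ± 0.09 (adjusted p = 4.99e-05) and 0.73 ± 0.09 (adjusted p = 0.000469). AACS, which activates acetoacetate, read 9.57 and 9.69 in HCC1937+BRCA1 with COH29 against 9.17 and 9.09 in its controls, and 9.70 and 9.71 in HCC1937 with COH29 against 9.12 and 9.12 in its controls. AACS rose by 0.50 ± 0.08 (adjusted p = 0.0018) and 0.58 ± 0.08 (adjusted p = 0.00131), and a named pseudogene of it exists.

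ACLY, which makes acetyl-CoA from citrate, read 11.32 and 11.34 in HCC1937+BRCA1 with COH29 against 11.07 and 11.03 in its controls, and 11.50 and 11.52 in HCC1937 with COH29 against 11.24 and 11.17 in its controls. ACLY rose by 0.28 ± 0.08 (adjusted p = 0.0248) and 0.30 ± 0.08 (adjusted p = 0.0229). These small rises ended as calls without any 1 of the 4 arrays compared, HCC1937+BRCA1 COH29 and control replicates 1 and 2 (adjusted p = 0.0712 to 0.103) and HCC1937 COH29 and control replicates 1 and 2 (adjusted p = 0.0707 to 0.143). ACACA, the carboxylase that makes malonyl-CoA, moved the other way. It read 9.42 and 9.37 in HCC1937+BRCA1 with COH29 against 9.84 and 9.87 in its controls, and 9.65 and 9.72 in HCC1937 with COH29 against 9.94 and 10.06 in its controls. ACACA fell by 0.46 in HCC1937+BRCA1 (SE 0.08, adjusted p = 0.00274) and by 0.31 in HCC1937 (SE 0.08, adjusted p = 0.0281). The ACACA call in HCC1937 ended without any 1 of the 4 HCC1937 arrays (COH29 and control replicates 1 and 2, adjusted p = 0.0527 to 0.186).

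FASN, the synthase that builds palmitate, read 10.41 and 10.53 in HCC1937+BRCA1 with COH29 against 10.20 and 10.07 in its controls, and 10.26 and 10.29 in HCC1937 with COH29 against 10.33 and 10.39 in its controls. FASN rose by 0.33 ± 0.09 in HCC1937+BRCA1 (adjusted p = 0.0188) and changed by -0.09 ± 0.09 in HCC1937 (adjusted p = 0.511). Exposed arrays thus lay above controls in HCC1937+BRCA1 and below them in HCC1937, while the difference of 0.42 ± 0.13 did not pass the test (adjusted p = 0.187). The FASN call ended without HCC1937+BRCA1 COH29 replicate 2 and without HCC1937+BRCA1 control replicate 2 (adjusted p = 0.104 to 0.108). SCD, the desaturase that makes oleate, read 11.56 and 11.86 in HCC1937+BRCA1 with COH29 against 11.17 and 11.01 in its controls, and 12.53 and 12.51 in HCC1937 with COH29 against 12.14 and 12.03 in its controls. SCD rose by 0.62 ± 0.11 (adjusted p = 0.00303) and 0.44 ± 0.11 (adjusted p = 0.0242). Its call in HCC1937 ended without any 1 of the 4 HCC1937 arrays (COH29 and control replicates 1 and 2, adjusted p = 0.0688 to 0.141).

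ELOVL6, which elongates palmitate to stearate, fell most of the 32 genes in HCC1937+BRCA1. It read 9.41 and 9.31 in HCC1937+BRCA1 with COH29 against 10.72 and 10.65 in its controls, and 9.64 and 9.69 in HCC1937 with COH29 against 10.05 and 10.03 in its controls. The exposed arrays lay far below the controls in HCC1937+BRCA1 and a little below them in HCC1937. ELOVL6 fell by 1.33 in HCC1937+BRCA1, to 0.398 of the control level (SE 0.08, adjusted p = 1.06e-05), and by 0.37 in HCC1937 (SE 0.08, adjusted p = 0.0108). The ELOVL6 call in HCC1937 ended without HCC1937 COH29 replicate 1 and without either HCC1937 control (adjusted p = 0.0587 to 0.0685). FADS1, a desaturase of polyunsaturated fatty acids, read 10.15 and 10.28 in HCC1937+BRCA1 with COH29 against 10.37 and 10.39 in its controls, and 9.84 and 9.88 in HCC1937 with COH29 against 10.04 and 10.09 in its controls. Its changes of -0.17 ± 0.08 and -0.20 ± 0.08 and those of its neighbour FADS2, 0.20 ± 0.12 and 0.14 ± 0.12, did not pass the test, and FADS2 ranged between 8.59 and 9.18. The FADS1 and FADS2 loci overlap in the annotation.

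Set beside each other, the medians of the sterol and of the fatty acid enzymes stood above those of the controls of the same line on every exposed array. The median deviation of the 16 sterol enzymes from the control mean was 0.19 and 0.28 in HCC1937+BRCA1 with COH29 against 0.05 and -0.05 in its controls. In HCC1937 it was 0.18 and 0.33 with COH29 against 0.01 and -0.01 in controls. The median of the 9 fatty acid enzymes was 0.27 and 0.34 in HCC1937+BRCA1 with COH29 against 0.02 and -0.02 in its controls, and 0.06 and 0.22 in HCC1937 with COH29 against 0.01 and -0.01 in its controls. Over all 18417 genes the medians lay between -0.01 and 0.05. On HCC1937 COH29 replicate 1 the median of all genes was 0.05, so the fatty acid median of 0.06 there was near that of all genes. The median change of the fatty acid enzymes was 0.28 in HCC1937+BRCA1 and 0.14 in HCC1937, and in HCC1937 it was 0.22 without COH29 replicate 1 and 0.06 without COH29 replicate 2. The 2 control values of a line mirror each other around 0 by construction, since each control is measured against the mean of both. They are therefore not an independent comparison for the exposed arrays. These medians are descriptions of lists and carry no test. The fatty acid list includes ACLY and ACSS2, which make the acetyl-CoA that both pathways use, so its median does not stand for fatty acid synthesis alone. Within the lists, MVD was the only sterol enzyme called lower, in HCC1937. Among the fatty acid enzymes, ACACA and ELOVL6 were called lower in both lines. In HCC1937+BRCA1, MVD changed by -0.35 and missed the threshold (limma adjusted p = 0.0554). With dim genes left out, MVD and PMVK were called lower there (limma adjusted p = 0.031 and 0.0361). The HCC1937 calls of MVD, ACACA and ELOVL6 ended without some single arrays, as given above. The difference between the lists in their falls was not tested.

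**Figure D3:**
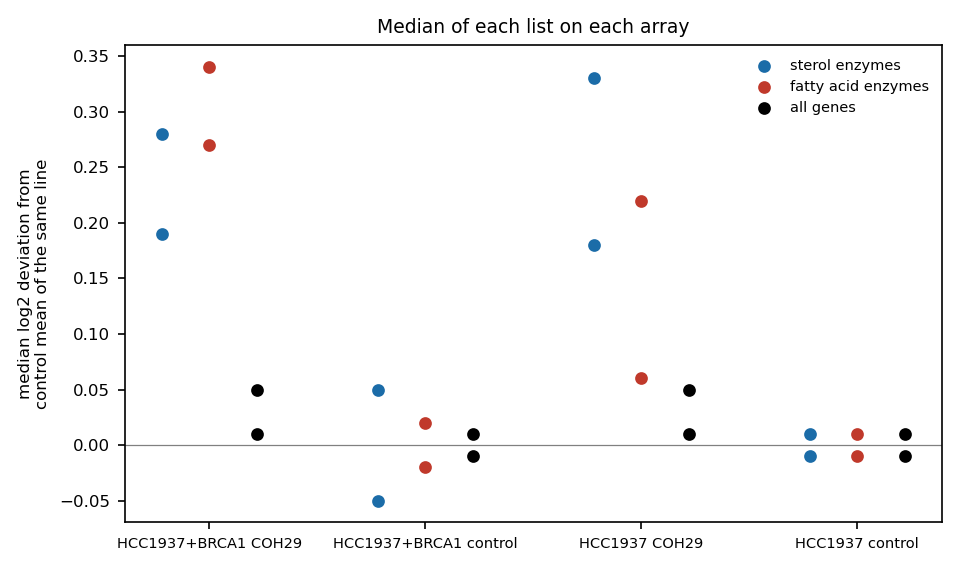
Median log2 deviation (vertical axis) from the control mean of the same line over the 16 sterol enzymes, the 9 fatty acid enzymes and all 18417 genes, for each array (points) by group (horizontal axis). Sterol enzymes stand at 0.18 to 0.33 on the exposed arrays and within 0.05 of 0 on the controls, which mirror each other around 0 by construction. Fatty acid enzymes stand at 0.06 to 0.34 on the exposed arrays, with the 0.06 on HCC1937 COH29 replicate 1, where all genes stand at 0.05.

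The next comparison asks whether the exogenous BRCA1 line answered COH29 differently. Of the 32 genes, 14 rose in both lines, against 7.22% of all genes, and 2 fell in both, against 10.8%. SCAP and FASN were called in HCC1937+BRCA1 alone, MVD and CYP51A1 in HCC1937 alone, and 12 in neither. The 2 contrasts share no array, and the changes had the same sign for 27 of 32 genes. Across genes, which are not independent replicates, they correlated with r = 0.83 over the 32 genes. The r was 0.94 over the 16 sterol enzymes and 0.87 over the 9 fatty acid enzymes. Neither r nor the share of equal signs was computed over all genes. Whether this likeness is particular to these genes was therefore not tested. The test of the difference of effects called 2 of the 32 genes, 1 higher and 1 lower in HCC1937+BRCA1, against 0.956% of all genes (0.543% higher and 0.413% lower). It called 0 of 16 sterol enzymes with limma, where 0 were higher and 2 lower at an unadjusted p under 0.05. With the eBayes trend and robust settings it called 4 of the 32 genes, adding SC5D (adjusted p = 0.019) and FASN (adjusted p = 0.039). INSIG1 rose more in HCC1937+BRCA1, by 0.97 ± 0.14 on the log2 scale (95% interval 0.65 to 1.30, adjusted p = 0.0215). ELOVL6 fell more in HCC1937+BRCA1, with a difference of -0.96 ± 0.12 (95% interval -1.22 to -0.69, adjusted p = 0.0108). Both differences have an error about 1.41 times that of a single effect, and neither call held under every alternative. With all arrays but no moderation, both calls ended (adjusted p = 0.175 for INSIG1 and 0.106 for ELOVL6). The INSIG1 call ended without any 1 of 7 arrays, all but HCC1937+BRCA1 COH29 replicate 1 (adjusted p = 0.061 to 0.0963, difference 0.84 to 1.01). The ELOVL6 call ended without either HCC1937 control and without HCC1937+BRCA1 COH29 replicate 2 (adjusted p = 0.0538 to 0.0595, difference -0.96 to -0.91).

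**Figure D4:**
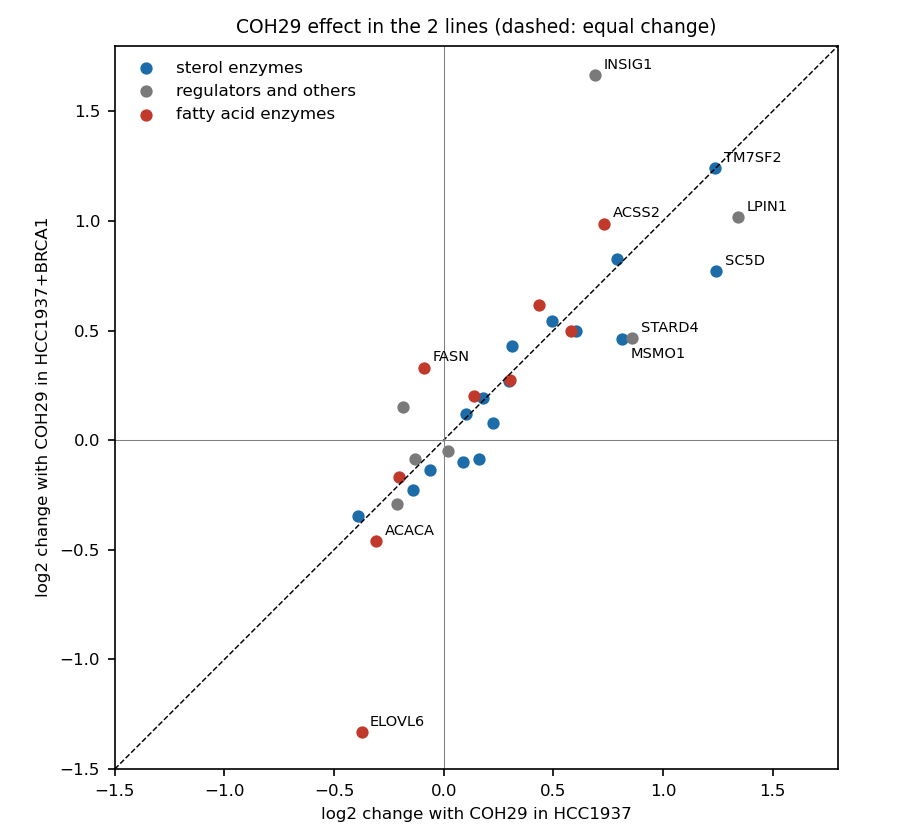
Log2 change with COH29 in HCC1937+BRCA1 (vertical axis) against that in HCC1937 (horizontal axis) for the 32 genes, coloured by role, with the dashed line of equal change. TM7SF2 lies on the line at 1.24, INSIG1 lies above it at 1.66 against 0.69, and ELOVL6 lies below it at -1.33 against -0.37.

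Levels also differed between the lines themselves. Without COH29, 12 of the 32 genes were higher and 2 lower in HCC1937+BRCA1 than in HCC1937, against 16.4% and 14.8% of all genes (31.2% in either direction). With COH29, 12 were higher and 5 lower, against 14.2% and 17.4% (31.6% in either direction). The arrays of HCC1937+BRCA1 lay above those of HCC1937 for 17 of the 32 genes and below for 10 with COH29, against 28.6% and 32.0% of all genes. They lay above for 18 and below for 11 without COH29, against 31.8% in each direction. The 2 comparisons share no array with each other but share theirs with the COH29 comparisons. Of the 16 sterol enzymes, 8 were higher and 1 was lower in HCC1937+BRCA1 in each of them. Of the 9 fatty acid enzymes, 1 was higher and 3 were lower with COH29, and 2 were higher and 1 was lower without it. The 5 lower with COH29 among the 32 genes became 2 without HCC1937 COH29 replicate 2 and 3 without either HCC1937+BRCA1 COH29 array. The 1 lower sterol enzyme became 2 without HCC1937 COH29 replicate 1 in each comparison and, for the levels without COH29, also without HCC1937 COH29 replicate 2. Among the fatty acid enzymes, the 3 lower with COH29 became 1 without HCC1937 COH29 replicate 2 or without HCC1937+BRCA1 COH29 replicate 2, the 1 higher became 0 without HCC1937+BRCA1 COH29 replicate 2, and the 2 higher without COH29 became 1 without any 1 of the 4 control arrays (replicates 1 and 2 of each line). The median difference of the sterol enzymes was 0.32 with COH29 and 0.38 without it, and that of the fatty acid enzymes -0.07 and -0.10.

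ACAT2, PMVK, FDPS, LSS, CYP51A1, MSMO1 and NSDHL were higher in HCC1937+BRCA1 both with and without COH29. CYP51A1 differed most of these without COH29, by 0.93 ± 0.09 (adjusted p = 9.29e-05), and by 0.90 ± 0.09 with it (adjusted p = 0.000116). PMVK was higher by 0.72 ± 0.08 with COH29 and 0.80 ± 0.08 without, FDPS by 0.70 ± 0.10 and 0.77 ± 0.10, and ACAT2 by 0.51 ± 0.09 and 0.70 ± 0.09. These 3 were not called with COH29 in either line. MSMO1 was higher by 0.47 ± 0.09 with COH29 and 0.82 ± 0.09 without, and NSDHL by 0.49 ± 0.09 and 0.73 ± 0.09. LSS was higher by 0.53 ± 0.10 and 0.41 ± 0.10, and its call without COH29 ended without HCC1937 control replicate 2 and without HCC1937+BRCA1 control replicate 1 (adjusted p = 0.0538 to 0.0705). HMGCS1 ran against them and was lower in HCC1937+BRCA1 by -0.99 ± 0.10 with COH29 and -0.89 ± 0.10 without (adjusted p = 8.85e-05 and 0.00017). SC5D was higher in HCC1937+BRCA1 without COH29 by 0.65 ± 0.10 (adjusted p = 0.00082) and differed by 0.18 ± 0.10 with it (adjusted p = 0.213). MVD was higher with COH29 by 0.40 ± 0.12 (adjusted p = 0.0336), a call that ended without HCC1937 COH29 replicate 1, without either HCC1937 control and without HCC1937+BRCA1 COH29 replicate 2 (adjusted p = 0.0525 to 0.212), in the last case with a difference of 0.23.

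Of the regulators and related genes, INSIG1 was higher in HCC1937+BRCA1 by 1.5 ± 0.10 with COH29 (adjusted p = 1e-05) and by 0.52 ± 0.10 without (adjusted p = 0.00393). LPIN1 was higher by 0.72 ± 0.08 and 1.04 ± 0.08 (adjusted p = 0.000158 and 1.65e-05). INSIG2 was higher with COH29 by 0.45 ± 0.09 (adjusted p = 0.00508), and STARD4 was lower with COH29 by -0.49 ± 0.13 (adjusted p = 0.0154). The STARD4 call ended without HCC1937 COH29 replicate 2 and without HCC1937+BRCA1 COH29 replicate 1 (adjusted p = 0.102 to 0.111).

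Among the fatty acid enzymes, SCD was lower in HCC1937+BRCA1 by -0.81 ± 0.11 with COH29 and -0.99 ± 0.11 without (adjusted p = 0.000626 and 0.000193). ELOVL6 changed sides, being lower in HCC1937+BRCA1 with COH29, by -0.31 ± 0.08 (adjusted p = 0.0181), and higher without it, by 0.65 ± 0.08 (adjusted p = 0.00035). The lower level with COH29 ended as a call without HCC1937 COH29 replicate 2 and without HCC1937+BRCA1 COH29 replicate 2 (adjusted p = 0.0804 to 0.101). ACACA was lower with COH29 by -0.29 ± 0.08 (adjusted p = 0.0249), which ended without HCC1937 COH29 replicate 2 and without either HCC1937+BRCA1 COH29 array (adjusted p = 0.0669 to 0.106). FADS1 was higher by 0.36 ± 0.08 with COH29 and 0.32 ± 0.08 without (adjusted p = 0.01 and 0.0173). The FADS1 call with COH29 ended without HCC1937+BRCA1 COH29 replicate 2 (adjusted p = 0.0684), and the call without COH29 ended without any 1 of the 4 control arrays (replicates 1 and 2 of each line, adjusted p = 0.0634 to 0.105).

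**Figure D5:**
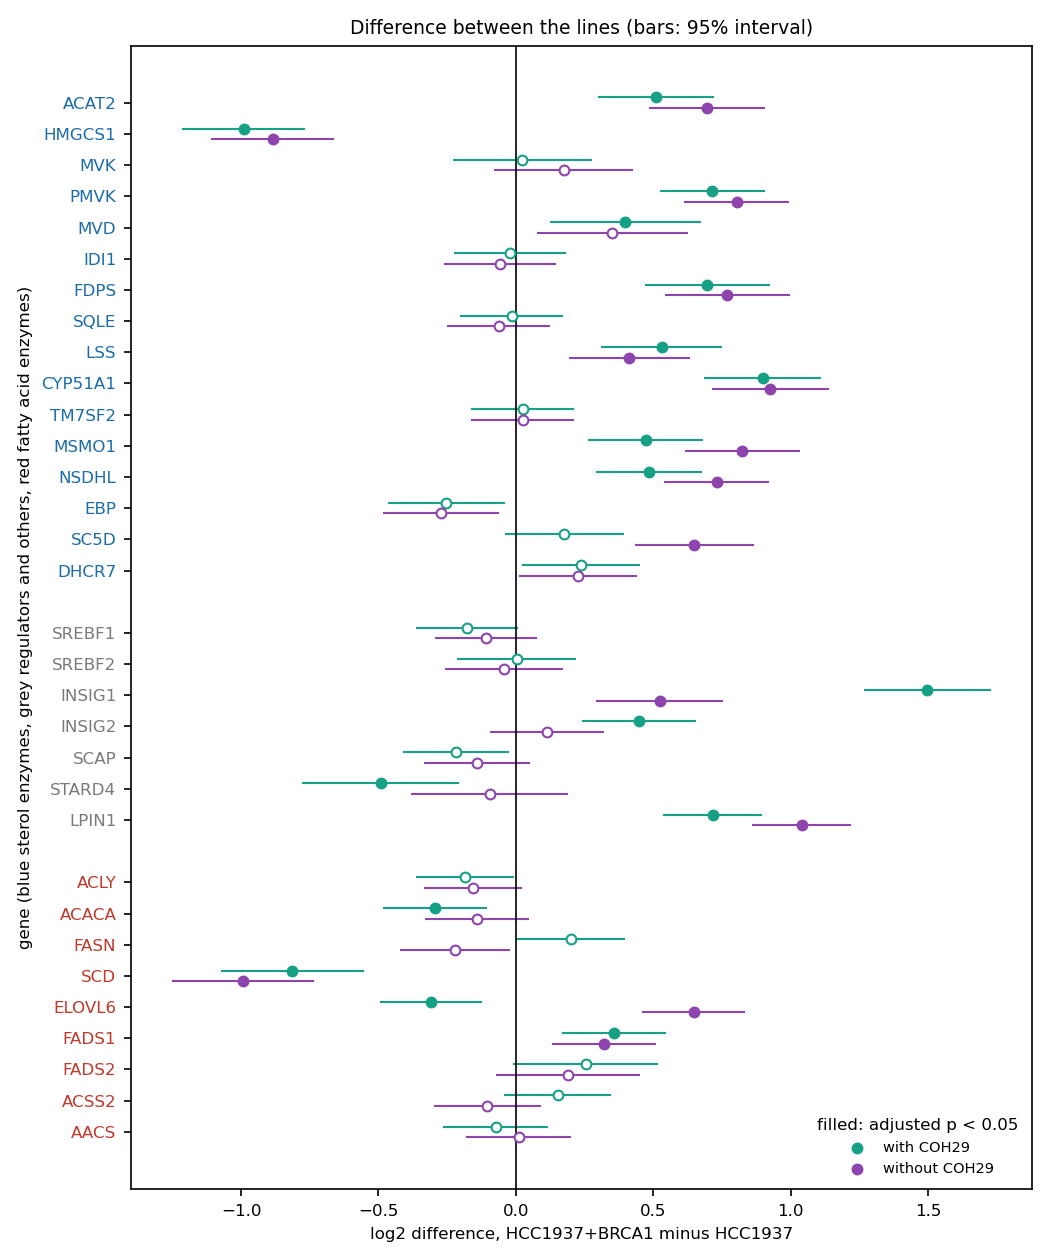
Log2 difference between the lines (horizontal axis, HCC1937+BRCA1 minus HCC1937) of the 32 genes (rows), with COH29 in green above without COH29 in purple. Points are limma estimates from 2 arrays per group, bars their 95% intervals, and filled points have an adjusted p under 0.05; INSIG1 with COH29 lies highest at 1.5, and ELOVL6 is the gene called on opposite sides, at -0.31 and 0.65.

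Further genes around the 2 pathways were counted in lists. Of 11 genes of SREBP processing and sterol-regulated degradation, 3 rose and 2 fell in HCC1937+BRCA1 (against 13.6% and 20.1% of all genes), and 2 rose and 1 fell in HCC1937 (against 10.2% and 12.5%), which is not far from these shares. UBE2G2, a ubiquitin-conjugating enzyme of endoplasmic reticulum degradation, fell by 1.06 (SE 0.11) in HCC1937+BRCA1 and by 1.05 (SE 0.11) in HCC1937. SEC24D, a coat protein of vesicles leaving the endoplasmic reticulum, rose by 0.67 ± 0.08 and 0.68 ± 0.08. SPRING1, which assists the maturation of the protease that cuts the SREBF products, rose by 0.47 ± 0.09 and 0.51 ± 0.09. MBTPS2, the protease of the final cut, fell by 0.42 in HCC1937+BRCA1 (SE 0.09) and changed by -0.07 ± 0.09 in HCC1937, and the difference was not called (adjusted p = 0.274).

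The isoprenoid branches, which draw farnesyl and isopentenyl diphosphate away from sterols, included 9 falls in HCC1937+BRCA1. Of 13 genes, 0 rose and 9 fell there (limma; 1 higher and 11 lower at an unadjusted p under 0.05), while 1 rose and 2 fell in HCC1937. Of all genes, 13.6% rose and 20.1% fell in HCC1937+BRCA1, and 10.2% rose and 12.5% fell in HCC1937, where the count is near these shares. The 9 falls were 6 to 9 when arrays were left out singly. The 1 rise in HCC1937 became 0 without HCC1937 COH29 replicate 2 or without either HCC1937 control, and the 2 falls became 1 without HCC1937 control replicate 1. PDSS1, which builds the tail of coenzyme Q, fell by 0.78 in HCC1937+BRCA1 (SE 0.08) and changed by -0.21 ± 0.08 in HCC1937. RABGGTA, a subunit that prenylates Rab proteins, fell by 0.71 (SE 0.11) and 0.65 (SE 0.11) in the 2 lines. PGGT1B and RCE1, which attach and process prenyl groups on other proteins, fell by 0.57 (SE 0.11) and 0.45 (SE 0.10) in HCC1937+BRCA1 and changed by -0.10 ± 0.11 and -0.09 ± 0.10 in HCC1937. The RCE1 call ended without HCC1937+BRCA1 COH29 replicate 1 and without HCC1937+BRCA1 control replicate 2 (adjusted p = 0.0503). The difference of effects called 0 of the 13 with limma, against 0.956% of all genes, so a list this short could hold few calls. At an unadjusted p under 0.05 (limma), 0 were higher and 4 lower, against 930 and 1498 of all 18417 genes.

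Of 13 genes of sterol export, esterification and the LXR receptors, 4 rose and 2 fell in HCC1937+BRCA1 (against 13.6% and 20.1% of all genes), and 6 rose and 1 fell in HCC1937 (against 10.2% and 12.5%). The 6 rises became 3 without HCC1937 control replicate 2, and the 2 falls in HCC1937+BRCA1 became 1 without any 1 of 6 arrays (all but the 2 HCC1937 COH29 arrays). NPC1, which passes cholesterol out of lysosomes, rose by 1.31 ± 0.09 in HCC1937+BRCA1 and 1.35 ± 0.09 in HCC1937. ABCG1, a sterol exporter, rose by 0.98 ± 0.11 and 0.92 ± 0.11, and MYLIP, a ubiquitin ligase under LXR control, rose by 0.91 ± 0.10 and 0.63 ± 0.10. NR1H3, which encodes an LXR receptor, fell by 0.70 in HCC1937+BRCA1 (SE 0.08) and changed by -0.15 ± 0.08 in HCC1937, and the difference was not called (adjusted p = 0.0657).

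Of 16 other genes of fatty acid elongation and desaturation, 3 rose and 1 fell in HCC1937+BRCA1, and 2 rose and 0 fell in HCC1937 (limma; 4 higher and 0 lower at an unadjusted p under 0.05). The 4 calls and the 2 calls stand against 33.6% and 22.7% of all genes called, so the list held no more calls than the array as a whole. ELOVL7, an elongase, rose by 0.87 ± 0.10 and 0.89 ± 0.10 in the lines. ACACB, the mitochondrial counterpart of ACACA that restrains fatty acid oxidation, rose by 1.04 ± 0.10 and 0.67 ± 0.10, opposite to ACACA. ELOVL4, an elongase of very long chains, rose by 1.26 ± 0.15 in HCC1937+BRCA1 and changed by 0.46 ± 0.15 in HCC1937 (adjusted p = 0.0563). ELOVL2, an elongase of polyunsaturated chains, fell by 0.79 in HCC1937+BRCA1 (SE 0.10) and changed by -0.21 ± 0.10 in HCC1937. The difference of effects called 0 of the 16 with limma, against 0.956% of all genes, so this list too could hold few calls. At an unadjusted p under 0.05 (limma), 2 were higher and 1 lower, against 930 and 1498 of all 18417 genes.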

How the data were processed

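The authors deposited log2 intensities of 33297 probe sets on 8 Affymetrix arrays. The submitters' processing notes name RMA and Partek without versions; RMA corrects background, makes array distributions equal and summarises probes on the log2 scale. Sorted array values differed by at most 0.297. No build was given in the sources used here, detection calls were not used, and precision is limited by the number of arrays. By the platform annotation 19460 probe sets had 1 gene, 1754 several and 12083 none; those with several or none were left out. Of the named ones, 19429 matched a RefSeq gene (GRCh38.p14). Each gene kept its probe set of highest mean over the 8 arrays (18417 genes, 769 chosen among several; of the described genes, CYP51A1). A group-means model of all 8 arrays was fitted with limma 3.58.1 in R 4.3.3 (4 residual degrees of freedom, prior 4.96), with 5 contrasts. Line contrasts and the difference of effects run HCC1937+BRCA1 minus HCC1937. A gene was called where its p, adjusted by Benjamini-Hochberg over all 18417 genes, was under 0.05; the median standard error was 0.103 for an effect and 0.145 for a difference of effects. Motifs were searched in Python 3.11.15 with pandas 2.3.3; figures used matplotlib 3.10.9.

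On simulated data of 18417 genes, few were changed. They were 65 by 0.5, 65 by 1 and 70 by 2 in HCC1937+BRCA1, and 72, 67 and 61 in HCC1937. The fit recovered 100% of those changed by 1 or 2. Of those changed by 0.5, it recovered 55.4% in HCC1937+BRCA1, where 14 unchanged genes were called, and 63.9% in HCC1937, where 16 were. Far more genes were called in the data (33.6% and 22.7%), so these shares do not give the recovery there. The genes, lists and markers were chosen with earlier results of these data known, so they are not independent support for any direction. Every gene of the set is described. From each of 6 further lists, up to 4 genes were named, by largest change among those called with COH29 whose arrays did not overlap. Alternatives were a filter on dim genes (mean level under percentile 30), a shift of the arrays to a common median, cyclic loess, no moderation, eBayes with trend and robust, averaging the probe sets of a gene, a block for the replicate number, a fit of just the 4 arrays compared, and leaving out the arrays singly. Same-numbered arrays of different groups deviated together with correlations of -0.204 to 0.26, so the numbers were not taken to pair the arrays. Of the 32 genes, 7 overlap another protein-coding gene and 5 have named pseudogenes.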

Additional observations from a re-analysis of the deposited data

Results flagged for a closer look

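The COH29 effects of 2 genes differed between the lines by the test of the difference itself. INSIG1, which encodes a sterol-sensing retention protein of the endoplasmic reticulum, rose by 1.66 in HCC1937+BRCA1 and by 0.69 in HCC1937, and the difference was 0.97 (limma adjusted p = 0.0215). ELOVL6, which elongates palmitate, fell by 1.33 in HCC1937+BRCA1 and by 0.37 in HCC1937, and the difference was -0.96 (limma adjusted p = 0.0108). On all 4 exposed arrays INSIG1 lay above and ELOVL6 below the controls of the same line. Neither call of a difference held under every alternative. With no moderation of the limma fit, both ended (adjusted p = 0.175 for INSIG1 and 0.106 for ELOVL6).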

How the results depend on the processing

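Over 2528 recomputed single-gene results, 2385 kept their side of the threshold, 101 lost a call, 42 gained 1 and 0 changed direction. Under every alternative, 13 of 18 calls held in HCC1937+BRCA1, 11 of 18 in HCC1937, 0 of 2 in the difference of effects, 12 of 17 between lines with COH29 and 12 of 14 without. With arrays left out singly, the genes called among the 32 numbered 11 to 16 in HCC1937 (18 with all arrays) and 0 to 2 in the difference (2), and among all genes 2336 to 4012 in HCC1937 (4179) and 41 to 67 in the difference (176). The difference called 4 of the 32 and 566 of all genes with trend and robust, 0 and 3 with no moderation, 351 of all without dim genes, and 106 with the replicate block, which also ended the LSS and CYP51A1 calls in HCC1937. The median change of sterol enzymes in HCC1937+BRCA1 was 0.34 under cyclic loess (0.23 as reported), and that of fatty acid enzymes there 0.34 with a common median and 0.37 under cyclic loess (0.28). In HCC1937 the sterol median was 0.18 to 0.33 (0.26) and the fatty acid median 0.057 to 0.22 (0.14) with arrays left out singly. The cause of these moves was not tested; leaving out an array or moderation leaves fewer degrees of freedom. The simulated recovery of 55.4% (HCC1937+BRCA1) and 63.9% (HCC1937) of changes of 0.5 holds for 2 arrays a group where few genes change. In the data 33.6% and 22.7% of genes were called, and the adjusted p depends on that share. This recovery therefore does not give the limit for small changes in the data.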

Other observations

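Of 13 genes of glycerolipid and phospholipid synthesis, lipid droplets and lipolysis, 7 rose and 0 fell with COH29 in HCC1937+BRCA1. In HCC1937, 7 rose and 0 fell. At an unadjusted p under 0.05 (limma), 8 were higher and 0 lower in each line. HILPDA and PNPLA2, which are not synthesis enzymes, are among the rises in both lines. Of all genes, 13.6% rose and 20.1% fell in HCC1937+BRCA1, and 10.2% rose and 12.5% fell in HCC1937. The 7 rises became 4 in HCC1937+BRCA1 without HCC1937+BRCA1 COH29 replicate 2, and 4 in HCC1937 without HCC1937 COH29 replicate 2 or without either HCC1937 control. The median change of the 13 was 0.27 in HCC1937+BRCA1 and 0.29 in HCC1937, against 0.04 for all genes in each. HILPDA, a lipid droplet protein that inhibits lipolysis, rose by 1.27 ± 0.10 (SE, n = 2 arrays per group) and 0.64 ± 0.10. PNPLA2, the triglyceride lipase it inhibits, rose by 1.01 ± 0.08 and 0.67 ± 0.08. DGAT1, which makes triglycerides, rose by 1.00 ± 0.10 and 0.80 ± 0.10. LPIN2, a relative of LPIN1, rose by 0.55 ± 0.11 in HCC1937+BRCA1 and changed by 0.15 ± 0.11 in HCC1937 (difference 0.41, adjusted p = 0.32).

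Of 15 genes of fatty acid activation and oxidation, 2 rose and 2 fell in HCC1937+BRCA1, and 2 rose and 3 fell in HCC1937. The 4 calls stand against 33.6% of all genes called in HCC1937+BRCA1 and the 5 calls against 22.7% in HCC1937. PPARD, which encodes a lipid-sensing nuclear receptor, rose by 0.84 ± 0.09 in HCC1937+BRCA1 and 0.29 ± 0.09 in HCC1937. PPARA, its relative of the liver, fell by 0.65 (SE 0.08) and 0.33 (SE 0.08). ACSL5, which activates long-chain fatty acids, fell by 0.52 (SE 0.09) and 0.40 (SE 0.09), and ACSL4 changed by -0.08 ± 0.09 and fell by 0.39 (SE 0.09) in HCC1937. The difference of effects called 0 of the 15 genes with limma, against 0.956% of all genes (adjusted p = 0.0915 for PPARD and 0.368 for ACSL4). In HCC1937 the PPARD call ended without any 1 of its 4 arrays or either HCC1937+BRCA1 control (adjusted p = 0.0537 to 0.201). The PPARA and ACSL4 calls there ended without any 1 of the 4 HCC1937 arrays, and the ACSL5 call without HCC1937 COH29 replicate 1 or control replicate 1 (adjusted p = 0.0514 to 0.145). The 2 rises in HCC1937+BRCA1 became 1 without any 1 of 6 arrays (all but the 2 HCC1937 COH29 arrays), and the 2 rises in HCC1937 became 0 without any 1 of the 4 HCC1937 arrays and 1 without either HCC1937+BRCA1 control. The 3 falls in HCC1937 became 0 without replicate 1 of either HCC1937 group and 1 without replicate 2 of either.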
